A study of Mus musculus with 2 samples.

Results

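The Ly6 family is represented here by 7 genes, *Ly6d*, *Ly6a*, *Ly6e*, *Ly6c1*, *Ly6c2*, *Ly6g* and *Ly6k*, taken by symbol from the 19960 genes listed for omental cells. Their transcripts were counted in 18 classes of B, plasma, T, NK and myeloid cells that were set by detection of marker genes. The omentum is a fatty fold of the peritoneum that holds lymphoid clusters known as milky spots. Single cells were profiled by droplet RNA sequencing in 1 library of WT mice and 1 library of *Postn*-DTR mice, which are heterozygous for a diphtheria toxin receptor placed in the first coding exon of *Postn*. Both groups were on the C57BL/6 background, both received diphtheria toxin (DT) into the peritoneum, and omenta were taken 5 days later, so toxin exposure was common to both. *Postn* marks stromal cells of the milky spots, and the comparison asks how immune cells differ after those cells are depleted. Each library held cells pooled from several mice, no sort was described, and neither the labels nor the methods state the animals' sex or age. With 1 library per group there is no replicate, so no test was made and every interval covers counting error only.

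Ly6 proteins are small, disulphide-bonded proteins that are usually tethered to the outer leaflet of the plasma membrane by a glycosylphosphatidylinositol anchor. They are used above all as surface labels of leukocytes. Ly6d marks B lineage cells from an early progenitor stage, Ly6a is the antigen known as Sca-1, Ly6c1 and Ly6c2 together form the Ly6C antigen of monocytes and T cell subsets, Ly6g is the standard neutrophil label, and Ly6e and Ly6a are known as genes that interferon can induce. *Ly6k* is best known from the germ line.

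After removal of cells with fewer than 200 or more than 7500 genes, or over 25% mitochondrial transcripts, 8654 WT and 5727 *Postn*-DTR cells remained, with medians of 5635 and 8472 transcript molecules, counted as unique molecular identifiers (UMIs). The 18 classes held 6299 WT and 4714 *Postn*-DTR cells. A cell of the B2 class carried a median of 7 (WT) or 6 (*Postn*-DTR) of the 8 B cell markers, and a plasma cell 9 or 8 of 9. Other classes were less sure. By their nearest neighbours, 73.2% of WT and 63.6% of *Postn*-DTR B1 cells kept their class. For naive CD4 T cells this was 48.4% and 25%, and for regulatory T cells 36.2% and 19.4%. *Ptprc*, the pan-leukocyte CD45 gene, was detected in 74.1% of WT and 42.7% of *Postn*-DTR macrophages. *Postn* itself, the targeted gene, gave 84 UMIs in 34 WT cells and 20 UMIs in 8 *Postn*-DTR cells. The libraries shared 65 barcodes. Several classes were small in *Postn*-DTR, with 16 naive CD4 T cells, 16 cDC1, 20 cDC2, 19 plasmacytoid dendritic cells (pDC) and 10 migratory dendritic cells, and their values rest on few cells.

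All 7 genes lie on chromosome 15 (GRCm38, GENCODE M21). *Ly6d* occupies chr15:74762056-74763620 on the minus strand and *Ly6k* chr15:74796874-74799986 on the minus strand. *Ly6e* lies at chr15:74955051-74959905 on the plus strand, and *Ly6a* at chr15:74994877-74998031 on the minus strand. *Ly6c1* is at chr15:75044018-75048830 and *Ly6c2* at chr15:75108158-75111970, both on the minus strand, and *Ly6g* is at chr15:75155240-75159126 on the plus strand. The transcripts compared had 3 coding exons each. The first 120 coding bases of *Ly6c1* and *Ly6c2* are shown because the balance of these genes differed between classes although 387 of their 396 coding bases were identical. Capitals mark the bases that differ, and this stretch holds 6 of the 9.
Ly6c1: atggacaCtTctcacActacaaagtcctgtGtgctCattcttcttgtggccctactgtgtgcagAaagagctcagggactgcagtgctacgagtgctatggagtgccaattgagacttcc
Ly6c2: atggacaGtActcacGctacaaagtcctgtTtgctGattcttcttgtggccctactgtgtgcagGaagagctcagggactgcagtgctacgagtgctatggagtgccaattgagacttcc
Apart from this pair, *Ly6a* and *Ly6g* shared 84.1% of aligned coding positions, *Ly6a* and *Ly6c2* 82.3%, and *Ly6c2* and *Ly6g* 79.4%. *Ly6d*, *Ly6e* and *Ly6k* stood apart from all other members, with 50.2% to 56.4% identity in every pair. Of the 50-base stretches of annotated *Ly6c2* transcripts, 30.8% also occurred in *Ly6c1*, and of those of *Ly6a*, 15.03% occurred in *Ly6c1*. A read that lies within such a stretch cannot be given to 1 gene, so the counts of *Ly6c1*, *Ly6c2* and *Ly6a* carry some uncertainty. These are shares of annotated stretches and not of reads, so they do not measure how large it is. *Ly6d*, *Ly6e*, *Ly6g* and *Ly6k* shared no such stretch with another member.

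RefSeq start-site windows of 300 bases, from 250 before to 50 after the start, were found for 3 members (GRCm38.p6), and they are shown because *Ly6c1*, *Ly6c2* and *Ly6g* each had another class with the highest level. Capitals mark TATAAA and GAGGAAGT on either strand. These windows are chr15:75048788-75049087 on the minus strand for *Ly6c1*, chr15:75111922-75112221 on the minus strand for *Ly6c2* and chr15:75155011-75155310 on the plus strand for *Ly6g*.
Ly6c1 window: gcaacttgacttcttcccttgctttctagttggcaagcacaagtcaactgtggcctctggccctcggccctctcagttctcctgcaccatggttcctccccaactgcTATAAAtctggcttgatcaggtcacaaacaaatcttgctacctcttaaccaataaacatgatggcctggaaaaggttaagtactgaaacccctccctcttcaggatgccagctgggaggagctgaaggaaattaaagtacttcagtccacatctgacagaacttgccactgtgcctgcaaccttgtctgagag
Ly6c2 window: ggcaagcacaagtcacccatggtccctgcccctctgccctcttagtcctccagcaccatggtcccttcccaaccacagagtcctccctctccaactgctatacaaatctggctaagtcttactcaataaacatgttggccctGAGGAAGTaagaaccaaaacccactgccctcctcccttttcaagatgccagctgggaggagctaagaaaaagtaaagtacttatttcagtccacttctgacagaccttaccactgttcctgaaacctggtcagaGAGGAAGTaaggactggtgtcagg
Ly6g window: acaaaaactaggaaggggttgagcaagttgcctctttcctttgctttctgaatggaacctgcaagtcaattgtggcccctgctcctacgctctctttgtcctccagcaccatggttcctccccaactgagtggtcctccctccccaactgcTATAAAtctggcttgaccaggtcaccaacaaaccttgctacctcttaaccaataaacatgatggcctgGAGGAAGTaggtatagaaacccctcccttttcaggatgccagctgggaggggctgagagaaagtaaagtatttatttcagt
TATAAA occurred once in the *Ly6c1* window (first base at -142 from the start) and once in the *Ly6g* window (-98), and 13.6% of all 32851 windows held it. GAGGAAGT, the core of sites bound by ETS factors of myeloid and B cells, occurred 2 times in the *Ly6c2* window and 1 time in that of *Ly6g*, against 3.20% of all windows. The *Ly6c2* matches began at -107 and, after the start, at 27, and the *Ly6g* match at -30. Whether any of these matches is used was not tested. GAAA followed after 2 free bases by GAAA, a short form of the interferon response element, matched in none of these 3 windows, and 3.44% of all windows held it. CCAAT occurred 1 time in the windows of *Ly6c1* and *Ly6g* and in 37.4% of all windows. Both strands were searched, and no capitalised match overlapped another.

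Levels are given as the mean over cells of UMIs per 10000 UMIs of the cell. *Ly6e* had a level of at least 1.32 in every class and both libraries, and no other member did. *Ly6d* was high in B cells, pDC and, less so, plasma cells. *Ly6a* was found in B1 and B2 B cells, plasma cells, CD4 and gamma-delta T cells and pDC. *Ly6c2* was carried by NKT cells, pDC, monocytes, neutrophils, CD8 T cells and plasma cells, *Ly6c1* by naive CD4 T cells, *Ly6g* by neutrophils and *Ly6k* by plasma cells.

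**Figure D1:**
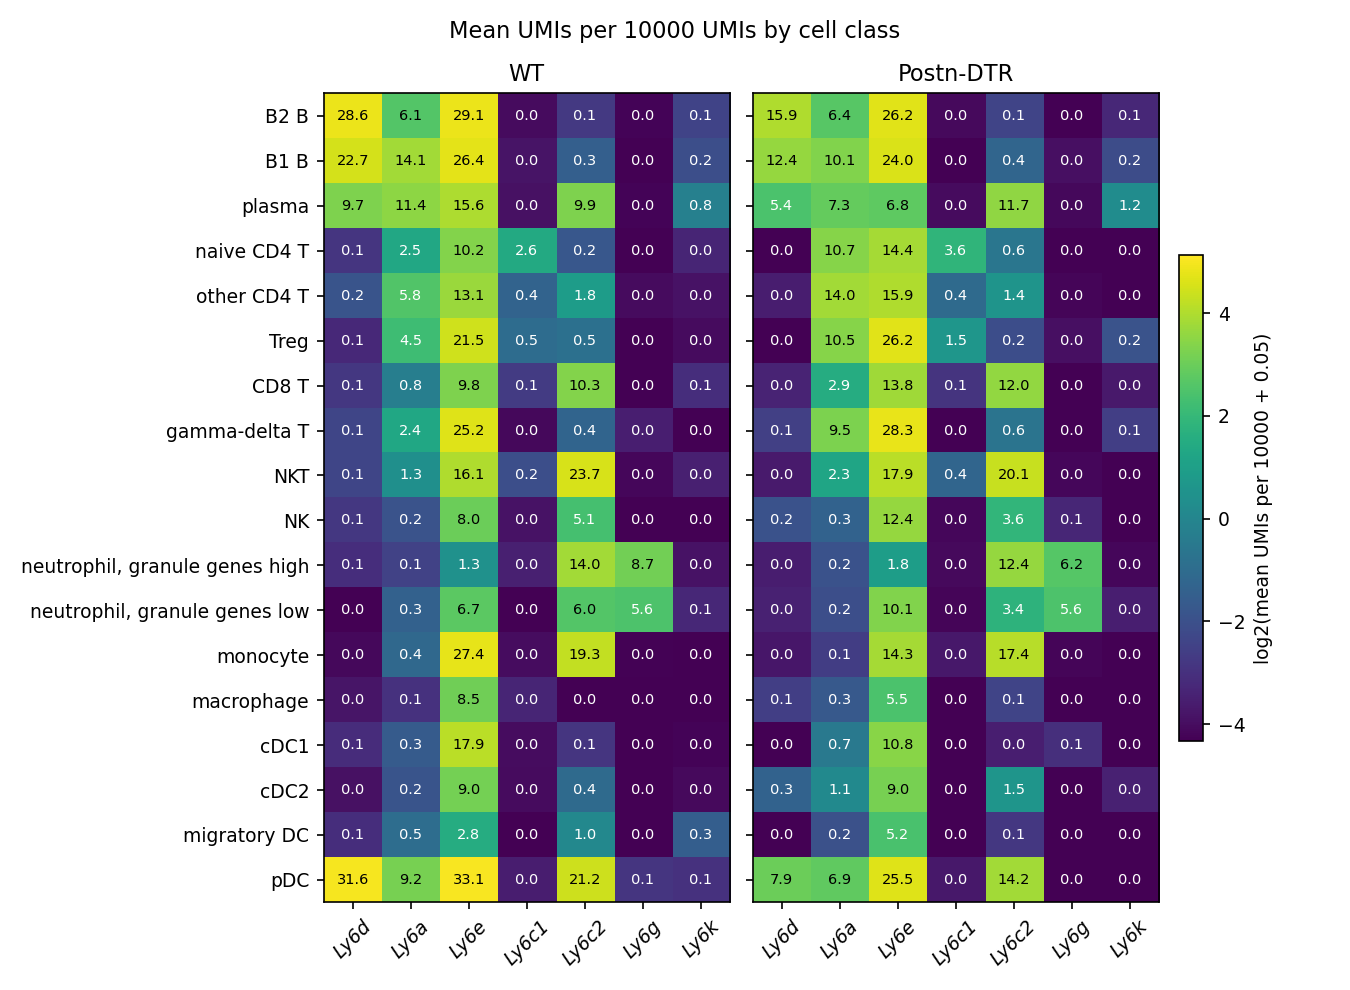
Mean UMIs per 10000 UMIs of each member (columns) in each of the 18 cell classes (rows), for the WT library (left) and the *Postn*-DTR library (right); the number in a square is the level and the colour its log2 after adding 0.05. *Ly6e* fills the whole column, while *Ly6g* is confined to the neutrophil rows among squares that read above 0.1.

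A member and a class were compared between the libraries where both held at least 10 cells and at least 50 UMIs of the gene in total, which left 66 pairs. In *Postn*-DTR, 17 pairs were at least 1.5-fold lower, 17 were at least 1.5-fold higher and 32 lay within 1.5-fold. Over all genes compared in the same way, 16.1% were lower and 11.1% were higher by that measure. The members did not move together: *Ly6d* was mostly lower and *Ly6a* mostly higher.

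**Figure D2:**
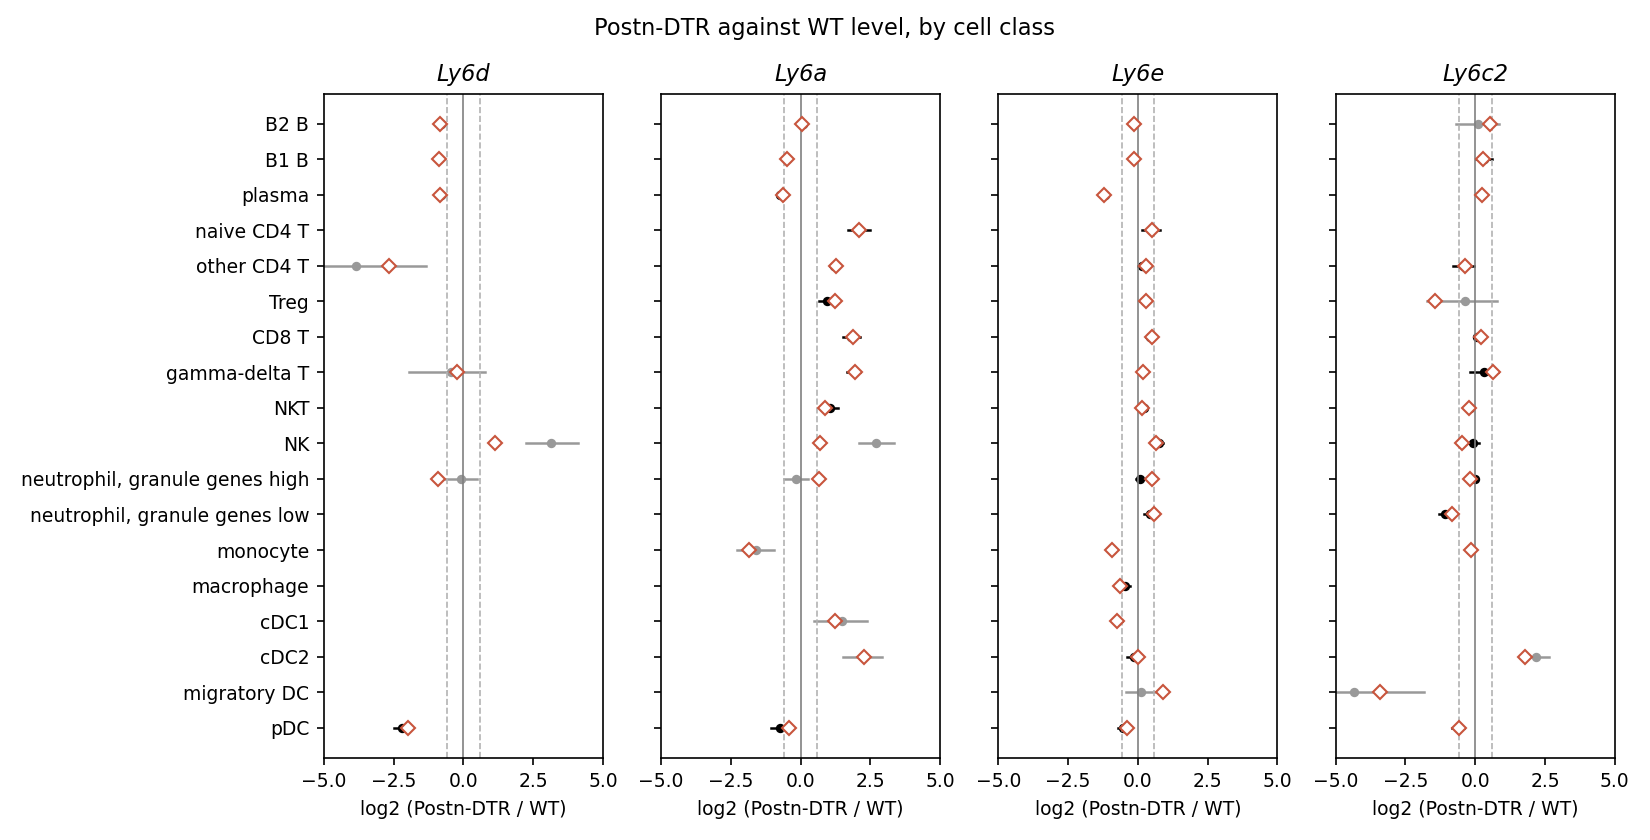
Log2 ratio of *Postn*-DTR to WT for *Ly6d*, *Ly6a*, *Ly6e* and *Ly6c2* by class; open diamonds are ratios of mean levels, filled points with bars are ratios of summed UMIs with 95% counting intervals (grey where fewer than 200 UMIs were counted), and dashed lines mark 1.5-fold. *Ly6d* diamonds lie left of the dashed line in the B2, B1, plasma and pDC rows, and *Ly6a* diamonds lie right of it in the 6 T cell rows.

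*Ly6d*, the B lineage antigen, was lower in *Postn*-DTR in all 4 classes in which it had 200 or more UMIs. In B2 B cells, the recirculating follicular type, the level was 28.6 in 1363 WT cells and 15.9 in 407 *Postn*-DTR cells. Their medians per cell were 27.0 and 14.3. In B1 B cells, the innate-like B cells of body cavities, it was 22.7 in 639 WT cells and 12.4 in 236 *Postn*-DTR cells, and in plasma cells, which secrete antibody, 9.73 in 582 WT and 5.39 in 2229 *Postn*-DTR cells. These are log2 ratios of -0.85, -0.87 and -0.85, so the relative difference was nearly the same in the 3 classes although the WT levels were not. In B1 cells the ratio was -0.43 under a stricter gate that kept 20 WT and 11 *Postn*-DTR cells. The counting intervals of the summed ratios were -0.87 to -0.76 in B2, -0.94 to -0.82 in B1 and -0.83 to -0.77 in plasma cells. In pDC, type I interferon producers that share *Ly6d* with the B lineage, the level was 31.6 in 71 WT cells and 7.93 in 19 *Postn*-DTR cells (log2 ratio -1.995, interval of the summed ratio -2.48 to -1.92). The pDC medians per cell were 26.5 and 1.40, and 85.9% and 52.6% of pDC held a *Ly6d* UMI. By their nearest neighbours, 78.9% of WT and 68.4% of *Postn*-DTR pDC kept their class.

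Over all 8 classes compared for *Ly6d*, 6 were lower and 1 was higher, beside 12.9% lower and 10.3% higher among all genes in those classes. The 4 classes outside the B lineage and pDC held 144 or fewer *Ly6d* UMIs each and are not read further. Cells thinned to 1000 UMIs gave the same order: 86.7% of B2 cells in WT and 73.4% in *Postn*-DTR kept a *Ly6d* UMI, against 97.9% and 91.4% before thinning, where median depths were 4404 and 3594 UMIs. Macrophages, which should lack the gene, had 0% in both libraries after thinning and 1.72% and 1.88% before it, at median depths of 5069.5 and 3316 UMIs. In order of WT level, pDC, B2 and B1 cells followed each other, and the summed level of pDC (28.9, 95% interval 27.6 to 30.2) overlapped that of B2 cells (27.8, 27.4 to 28.2).

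Within all B cells, *Ly6d* and *Ly6a* ran in opposite directions with the number of B1 markers detected in a cell. In WT, *Ly6d* was 28.7 in B cells with 0 B1 markers, 26.8 with 1, 24.96 with 2 and 22.2 with 3 or more. *Ly6a* was 6.24, 9.59, 12.4 and 13.9 in the same 4 groups. In *Postn*-DTR, *Ly6a* again went from 6.79 over 8.26 and 9.53 to 10.6, while *Ly6d* was 15.7, 13.5, 14.9 and 10.95 and lay below WT in each group. *Ly6e* was nearly level, between 26.1 and 29.1 in WT and between 23.5 and 26.1 in *Postn*-DTR. Median depth was 9890 UMIs in WT B1 cells and 4404 in WT B2 cells, and the part of depth in this order was not tested.

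**Figure D3:**
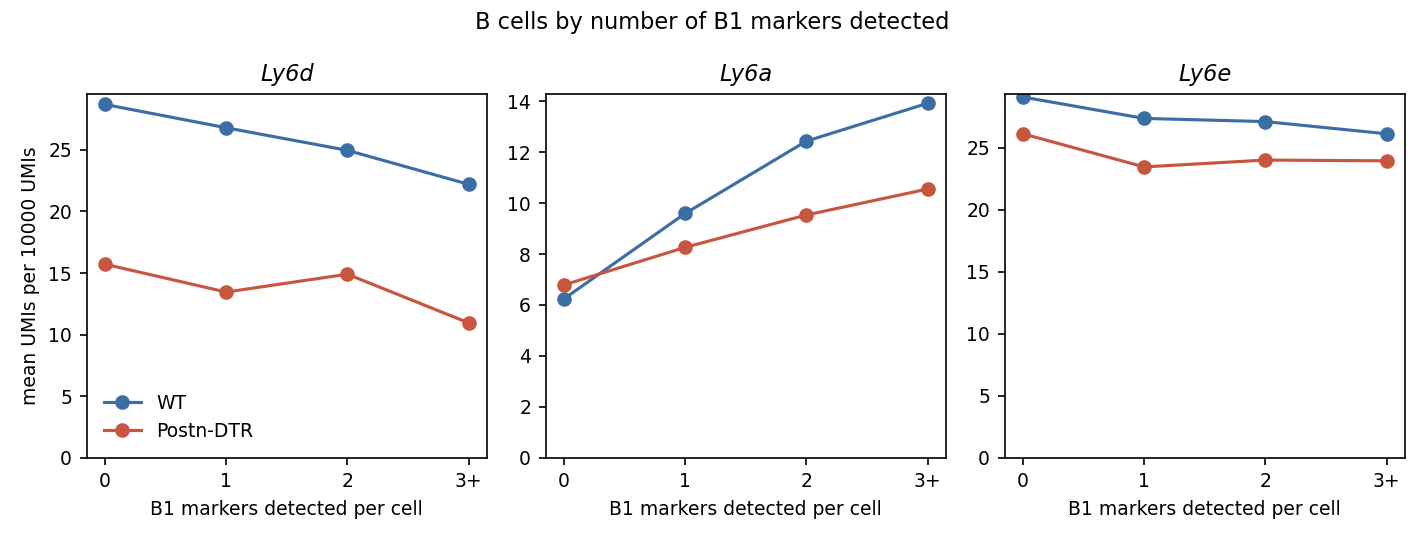
Mean UMIs per 10000 UMIs of *Ly6d*, *Ly6a* and *Ly6e* in all B cells grouped by the number of B1 markers detected (x axis), with WT in blue and *Postn*-DTR in red. *Ly6a* climbs from 6.24 to 13.9 in WT, and the *Postn*-DTR points of *Ly6d* lie below the WT points in each of the 4 groups.

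Among plasma cells, *Ly6d* was lower whichever heavy chain dominated. IgM plasma cells had 10.2 in 485 WT cells and 6.03 in 1902 *Postn*-DTR cells. IgG plasma cells had 7.73 in 79 WT cells and 1.74 in 311 *Postn*-DTR cells, a log2 ratio of -2.15 beside -0.76 for IgM; the difference between the isotypes was not tested. IgA plasma cells had 7.60 in 14 WT cells and 2.38 in 9 *Postn*-DTR cells.

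*Ly6a*, the Sca-1 antigen, was higher in *Postn*-DTR in all 6 T cell classes. In naive CD4 T cells the level was 2.50 in 256 WT cells and 10.7 in 16 *Postn*-DTR cells. In the remaining CD4 T cells it was 5.85 in 653 cells and 14.0 in 82, with medians per cell of 3.69 and 11.4. In CD8 T cells it was 0.775 in 514 cells and 2.87 in 78, and in gamma-delta T cells, innate-like cells with the other T cell receptor, 2.45 in 345 and 9.54 in 50. The log2 ratios were 2.10, 1.26, 1.89 and 1.96, with summed-ratio intervals of 1.68 to 2.47, 1.05 to 1.32, 1.52 to 2.12 and 1.68 to 2.11. Regulatory T cells (4.52 in 138 WT cells and 10.5 in 31 *Postn*-DTR cells) and NKT cells (1.27 in 458 and 2.29 in 86) gave 1.22 and 0.86, but these 2 did not hold under every setting: assignment by nearest neighbours put regulatory T cells at -0.028, and thinning put NKT cells at -0.20.

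Detection went the same way as the means in the remaining CD4 T cells and in CD8 T cells. Once depth was made equal, it differed little in regulatory T cells and went the other way in NKT cells. After thinning, 36.7% of the remaining CD4 T cells in WT and 65.4% in *Postn*-DTR carried *Ly6a*, against 73.4% and 86.6% before it, and in CD8 T cells 5.86% and 19.2%, against 21.8% and 51.3%. In regulatory T cells it was 27.7% and 29.0% after thinning and 49.3% and 67.7% before it. In NKT cells it was 8.73% and 6.98% after thinning and 20.1% and 33.7% before it. Macrophages held 0% and 1.60% after thinning and 5.17% and 5.63% before it. Over the 15 classes compared for *Ly6a*, 10 were higher and 2 lower, beside 10.7% higher and 15.8% lower among all genes there.

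In the B lineage *Ly6a* did not follow the T cells. B2 cells stood at 6.09 in WT and 6.38 in *Postn*-DTR (log2 ratio 0.07, interval -0.02 to 0.17, and -0.14 with nearest-neighbour classes). B1 cells stood at 14.1 and 10.1 (-0.49), and plasma cells at 11.4 and 7.32 (-0.63, interval of the summed ratio -0.75 to -0.70). The plasma cell ratio was 0.32 under a stricter gate that kept only 21 WT and 111 *Postn*-DTR plasma cells. By isotype, *Ly6a* was 10.7 and 7.49 in IgM cells and 17.1 and 6.55 in IgG cells, while 14 WT and 9 *Postn*-DTR IgA cells had 4.24 and 4.44. In pDC it was 9.19 and 6.94. In NK cells, macrophages, monocytes and neutrophils the level was at most 0.41 in either library, and the ratios there rest on 187 or fewer UMIs.

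*Ly6e*, an interferon-inducible gene found on most leukocytes, was the member with the widest distribution. Its highest WT levels were 33.1 in pDC, 29.1 in B2 cells, 27.4 in monocytes, 26.4 in B1 cells and 25.2 in gamma-delta T cells, and the lowest was 1.32 in neutrophils rich in granule genes. By summed UMIs, the WT intervals of pDC (29.0 to 31.6) and monocytes (27.9 to 29.3) overlapped, as did those of monocytes and B2 cells (27.6 to 28.4).

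The 2 largest *Ly6e* differences with 200 or more UMIs were in plasma cells and monocytes. Plasma cells had 15.6 in WT and 6.78 in *Postn*-DTR (log2 ratio -1.20, interval of the summed ratio -1.20 to -1.16), and the medians per cell were 15.1 and 6.01. It was lower in IgM cells (16.5 and 7.27) and in IgG cells (10.6 and 3.48). Monocytes, the blood-derived precursors of macrophages, had 27.4 in 159 WT cells and 14.3 in 191 *Postn*-DTR cells (-0.94, interval -0.99 to -0.88). The stricter gate gave -0.78 in plasma cells and, in 23 WT and 7 *Postn*-DTR monocytes, -0.19. Macrophages had 8.47 and 5.47 (-0.63) and cDC1, the cross-presenting dendritic cells, 17.9 and 10.8 (-0.73), where the median over all genes was itself -0.25. Less the median of the class, the summed ratios were -0.37 and -0.54, both within 1.5-fold. *Ly6e* in B2 and B1 cells stayed within 1.5-fold at -0.15 and -0.14.

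In NK cells *Ly6e* was higher, at 7.98 in 345 WT cells and 12.4 in 126 *Postn*-DTR cells (0.64, interval of the summed ratio 0.63 to 0.88), and thinned detection was 46.3% and 65.3%. With nearest-neighbour classes the ratio was 0.51, within 1.5-fold. All 6 T cell classes lay between 0.15 and 0.49. Over its 18 classes *Ly6e* was lower in 4 and higher in 2, beside 16.1% and 11.1% of all genes.

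A list of 14 interferon-stimulated genes, 13 of them in the files, is given beside these values. Its highest member over all cells was *Ifi27l2a*, with 4.49 in WT and 1.76 in *Postn*-DTR. In monocytes all 8 list genes that could be compared were at least 1.5-fold lower, with a median log2 ratio of -1.98, against 16.2% lower and a median of -0.06 over all genes. In B2 cells 5 of 6 were lower (median -1.65, 8.94% of all genes lower), although *Ly6e* and *Ly6a* differed little there. In CD8 T cells 5 of 6 were lower (median -0.90, 12.8% of all genes lower) where *Ly6a* was higher. Plasma cells had 3 of 8 lower and 1 higher (median -0.31), beside 15.7% and 12.5% of all genes, and NK cells 1 of 4 lower (median 0.27), beside 10.8%. The median was below 0 in every class except NK cells and granule-rich neutrophils, although migratory dendritic cells had only 1 gene to compare. B1 cells had 4 of 5 lower (median -1.27), beside 11.8% of all genes, and macrophages 3 of 5 (median -0.86), beside 17.9%. cDC2 had 7 of 9 lower, beside 30.1% of all genes. The cDC1 median of -0.16 lay above the -0.25 of all genes there. Granule-rich neutrophils went the other way, with 0 of 9 lower and 3 higher (median 0.42). Among all genes there, 4.81% were lower and 12.6% higher, with a median of 0.15. Granule-poor neutrophils did not share this, with 5 of 7 lower (median -1.52), beside 21.8% of all genes. The log2 ratio of *Ly6e* in granule-poor neutrophils was 0.58. Whether these genes bear on the *Ly6e* and *Ly6a* levels was not tested.

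The balance of *Ly6c1* and *Ly6c2* differed between classes. *Ly6c1* reached its highest level in naive CD4 T cells, at 2.61 in WT and 3.61 in *Postn*-DTR, where *Ly6c2* stood at 0.247 and 0.609. Over the 4 classes compared for *Ly6c1*, 1 was lower and 1 higher, beside 15.8% and 12.6% of all genes. Of the UMIs of both genes in naive CD4 T cells, *Ly6c2* made up 12.0% in WT (exact Clopper-Pearson interval 8.79% to 15.9%, 350 UMIs) and 20.7% in *Postn*-DTR (7.99% to 39.7%, 29 UMIs). The WT share was 4.64% without the 1 cell that had the most UMIs of both genes. In CD8 T cells *Ly6c2* made up 99.05% and 99.6%, in NKT cells 99.4% and 97.8%, in monocytes 99.9% in both libraries and in plasma cells 99.8% and 99.9%. The remaining CD4 T cells lay between, at 85.8% (83.5% to 87.8%) and 78.2% (68.0% to 86.3%), and regulatory T cells held 64.5% of 76 UMIs and 25% of 28 UMIs. Of WT naive CD4 T cells, 109 had *Ly6c1*, 9 had *Ly6c2* and 5 had both. Of the remaining WT CD4 T cells, 57 had *Ly6c1*, 107 had *Ly6c2* and 14 had both. In NKT and plasma cells most cells with *Ly6c1* also held *Ly6c2*, namely 24 of 28 WT NKT cells, 19 of 20 WT plasma cells and all 59 such *Postn*-DTR plasma cells. A few fibroblasts and mesothelial cells, outside the 18 classes, also had *Ly6c1*. The 67 WT UMIs came from 5 of 31 cells and the 92 *Postn*-DTR UMIs from 3 of 9 cells. *Ly6c2* gave 71 UMIs in 2 of these WT cells and 2 UMIs in 1 *Postn*-DTR cell.

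**Figure D4:**
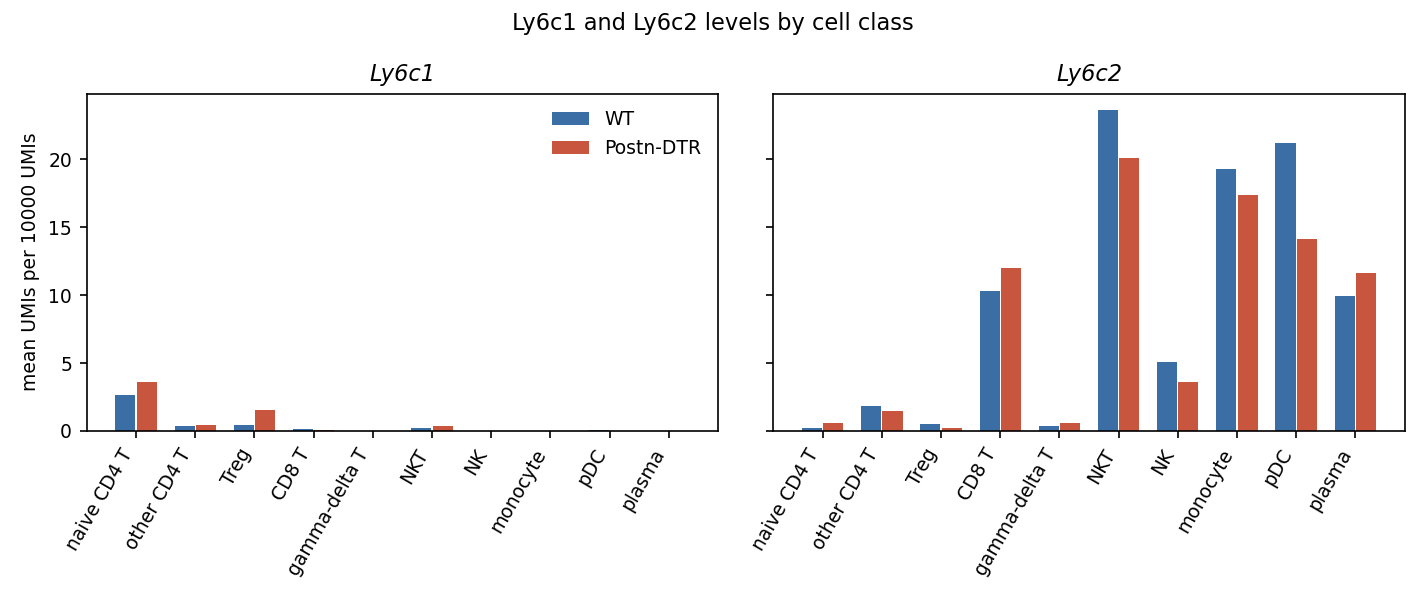
Mean UMIs per 10000 UMIs of *Ly6c1* (left) and *Ly6c2* (right) in 10 classes, on the same axis from 0, with WT bars in blue and *Postn*-DTR bars in red. *Ly6c1* is tallest in naive CD4 T cells at 2.61 and 3.61, where the *Ly6c2* bars are among the shortest.

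*Ly6c2* lay within 1.5-fold between the libraries in NKT cells, monocytes, granule-rich neutrophils, CD8 T cells and plasma cells. It was 23.7 in WT and 20.1 in *Postn*-DTR NKT cells (log2 ratio -0.24), 19.3 and 17.4 in monocytes (-0.15), 14.0 and 12.4 in granule-rich neutrophils (-0.17), 10.3 and 12.0 in CD8 T cells (0.22) and 9.94 and 11.7 in plasma cells (0.23). In pDC, which had the second highest WT level, it was 21.2 and 14.2 (-0.58, summed ratio -0.61 with interval -0.82 to -0.41), which is just within 1.5-fold by means and past it by summed UMIs. In NK cells it was 5.07 and 3.64 (-0.48). Under the stricter gate the monocyte ratio was -1.53. Granule-poor neutrophils had 6.005 and 3.40 (-0.82), which was -0.0975 with nearest-neighbour classes. Gamma-delta T cells had 0.364 and 0.564 (0.63), which was -3.56 without the 1 cell per library with the most *Ly6c2* UMIs. Over 15 classes, 3 were lower and 2 higher, beside 14.8% and 10.6% of all genes. After thinning, 72.3% and 75.6% of NKT cells held *Ly6c2*, against 84.9% and 86.0% before it, while B2 cells held 1.26% and 1.49%, against 3.23% and 4.67%. The order of the leading classes depends on the summary: by summed UMIs WT monocytes led with 27.5 (26.8 to 28.2), ahead of NKT cells at 23.4 (22.8 to 24.0). In plasma cells a few cells were very high, with up to 1116 UMIs in 1 WT cell and 803 in 1 *Postn*-DTR cell, and the medians per cell were 3.56 and 5.48.

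In monocytes *Ly6c2* was lower the more markers of the non-classical type were detected. It was 26.9 in the 91 WT monocytes with 0 of these markers, 14.8 in the 32 with 1 and 3.94 in the 36 with 2 or more. In *Postn*-DTR it was 19.9 in 156 cells, 8.88 in 21 and 1.28 in 14. *Ly6e* did not follow, at 28.1, 30.7 and 22.8 in WT and 14.0, 14.1 and 17.9 in *Postn*-DTR.

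*Ly6g*, the neutrophil antigen, was found in neutrophils of both kinds and was at most 0.0878 in every other class. Neutrophils in which at least 3 of the granule genes *Ltf*, *Camp*, *Ngp* and *Lcn2* were detected are called granule-rich, and the rest granule-poor. Granule-rich neutrophils had 8.66 in 264 WT cells and 6.22 in 496 *Postn*-DTR cells (log2 ratio -0.48, interval of the summed ratio -0.73 to -0.57). Granule-poor neutrophils had 5.61 in 40 WT cells and 5.56 in 408 *Postn*-DTR cells (-0.01), where the summed ratio was 0.53. Thinned detection was 47.5% and 38.4% in granule-rich and 33.3% and 35.5% in granule-poor cells, against 87.5%, 72.0%, 45% and 49.3% before thinning, and of thinned B2 cells 0.07% and 0% had a *Ly6g* UMI. The 0% stands for 0 of 402 cells, which allows a share of cells with a UMI of up to 0.913% (Clopper-Pearson). Among the 3 classes compared for *Ly6g*, none was lower by mean levels and 1 was higher (plasma cells, 69 UMIs), beside 12.8% and 13.6% of all genes. Granule-rich neutrophils were within 1.5-fold by means but past it by summed UMIs, at -0.65.

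*Ly6e* and *Ly6c2* ran in opposite directions along the granule genes. In WT neutrophils *Ly6e* was 9.001, 6.92, 5.62, 4.13 and 0.98 in cells with 0, 1, 2, 3 and 4 granule genes detected, and in *Postn*-DTR it was 7.89, 11.9, 8.09, 5.26 and 1.09. *Ly6c2* was 0, 2.91, 11.4, 15.2 and 13.9 in WT and 0.57, 1.44, 6.43, 12.9 and 12.3 in *Postn*-DTR. *Ly6g* was 0.76, 3.37, 9.72, 4.12 and 9.20 in WT and 2.18, 3.84, 8.35, 6.33 and 6.20 in *Postn*-DTR. It was lower with 0 or 1 granule genes than with 2 or more in both libraries. From 2 to 4 granule genes it did not rise further, and the WT value of 4.12 came from 28 cells. The WT groups with 0, 1 and 2 held 7, 16 and 17 cells. The granule genes made up 10.7% of UMIs in granule-rich WT neutrophils and 0.376% in granule-poor ones, at median depths of 11975.5 and 3132 UMIs, and the part of depth in the ordering was not tested.

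**Figure D5:**
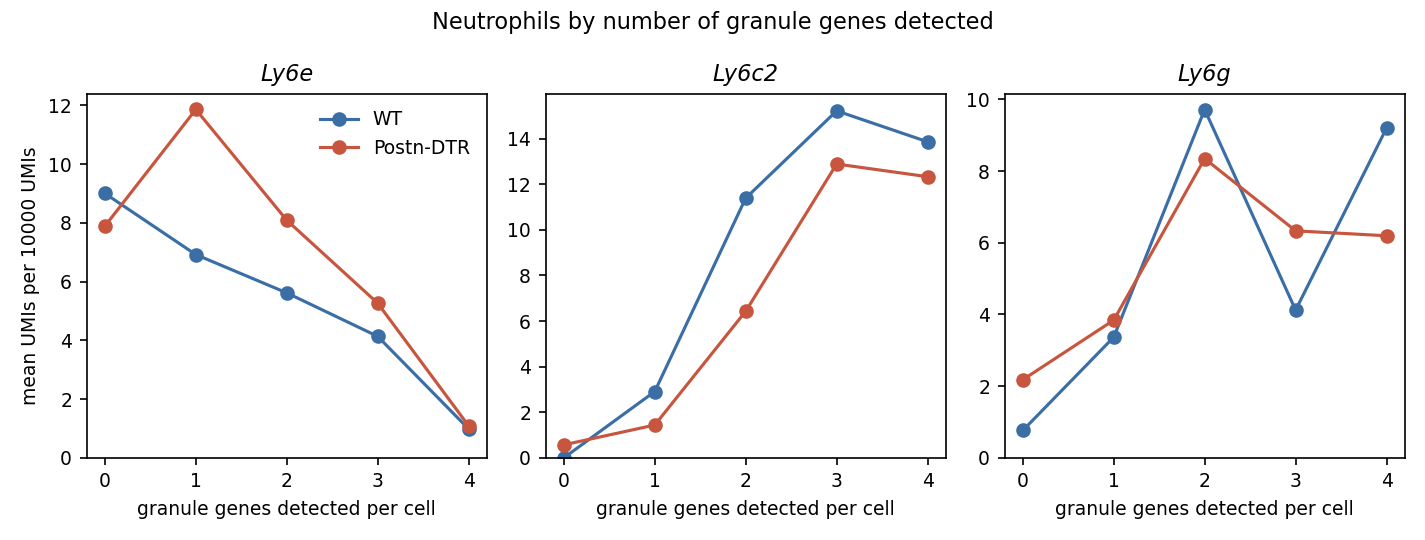
Mean UMIs per 10000 UMIs of *Ly6e*, *Ly6c2* and *Ly6g* in neutrophils grouped by how many of 4 granule genes were detected (x axis, 0 to 4), with WT in blue and *Postn*-DTR in red; each panel has its own scale from 0. *Ly6e* is lowest at 4 granule genes in both libraries, at 0.98 and 1.09, where *Ly6c2* stands at 13.9 and 12.3.

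*Ly6k* had its highest level in plasma cells and was at most 0.306 in every other class. In plasma cells it was 0.825 in WT and 1.17 in *Postn*-DTR (log2 ratio 0.51, interval of the summed ratio 0.14 to 0.30), and 5.34% and 8.88% of thinned cells had a UMI, against 16.0% and 27.6% before thinning. Under the stricter gate the ratio was 3.03, on 21 WT and 111 *Postn*-DTR cells. In CD8 T cells the shares were 0.195% and 0% after thinning and 3.11% and 2.56% before it. IgG plasma cells had more, at 2.79 in WT and 2.16 in *Postn*-DTR, than IgM plasma cells, at 0.535 and 1.02. B2 cells had 0.139 and 0.0536 on 113 UMIs. Of the 3 classes compared, 1 was lower and none was higher, beside 12.5% and 9.78% of all genes.

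Genes whose levels ran most like each member were sought over 31 points, each a class in a library with at least 30 cells, among 11941 genes with 200 or more UMIs, by Pearson's r of log2 levels. The points share depth, free RNA and mice within a library, and the values describe likeness alone. *Ly6d* was most like *Iglc3*, an immunoglobulin light chain segment (r = 0.98), *Fcrla* (0.94), which was also a marker used for B cells, and *Gm30211* (0.93). *Ly6a* was most like *Trp53i11* (0.86), *Epcam* (0.85) and *Abhd6* (0.83), and *Ly6e* most like *Kat2a* (0.77), *Polr1h* (0.77) and *Jtb* (0.76). *Ly6c1* went with *Trav14-2*, a T cell receptor segment (0.92), *Izumo1r*, the folate receptor 4 of CD4 T cells (0.91), and *Lrig1* (0.90). *Ly6c2* had no close partner, at 0.66 for *5830432E09Rik*, 0.63 for *Pxylp1* and 0.63 for *Rab3d*. *Ly6g* was most like *Tmem40*, *Ceacam10* and *Chil1* (0.997, 0.994 and 0.994), and *Ly6k* most like *Oosp1* (0.91), *Eaf2* (0.86) and *Iglv1* (0.83). Between the members themselves r ran from -0.58 (*Ly6e* and *Ly6g*) to 0.62 (*Ly6a* and *Ly6e*), and for the near-identical *Ly6c1* and *Ly6c2* it was -0.07.

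Of 35 other genes of the wider Ly6 and urokinase receptor family, 20 were in the files and 6 had at least 200 UMIs. *Plaur*, the urokinase receptor, was the most abundant, with 9.34 and 9.93 in granule-rich neutrophils, 4.36 and 4.53 in B2 cells, 2.37 and 3.81 in B1 cells and 1.53 and 3.15 in macrophages. In monocytes it was 6.56 and 4.97 (log2 ratio -0.40, interval of the summed ratio -0.56 to -0.33), within 1.5-fold. In cDC2 it was 2.14 and 1.63 on 434 and 40 UMIs, and the interval of -0.57 to 0.40 did not settle a direction. *Ly6i*, the gene most like *Ly6a* among the 8 whose coding sequences were aligned (86.4% identity), was 0.878 in WT and 0.0347 in *Postn*-DTR monocytes. These levels rest on 145 and 8 UMIs. *Lynx1*, a modulator of nicotinic receptors, was 0.503 and 0.289 in B2 cells, and *Ly6g5b* was 2.25 and 1.47 in gamma-delta T cells. *Cd59a*, a complement inhibitor, and *Ly6m* had at most 0.0366 in plasma cells, the only one of the 18 classes with 50 or more UMIs of either.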

How the data were processed

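Droplet libraries of omental cells from WT and *Postn*-DTR mice (1 each) were read from the deposited matrices. Their values are natural log values, ln(1 + 10000 × UMIs / total), made by the authors from counts; per the labels, alignment to mm10 used Cell Ranger 6.0.0 and a 5′ kit, while the published methods name a 3′ kit and another version. Whole UMIs were recovered from the steps of each cell: 99.95% (WT) and 99.89% (*Postn*-DTR) of values lay within 0.1 of a whole number. Of the listed symbols, 1060 that were blank or given as identifiers were filled from a gene name table (19932 identifiers matched).

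A cell was given the lineage with the largest share of its marker list detected (at least 2 markers, lead of 0.1), then a class by further markers. NKT cells were T cells outside the gamma-delta class with no *Cd4*, *Cd8a* or *Cd8b1* UMI. They also held at least 2 of *Klrb1c*, *Klrk1*, *Klrd1*, *Zbtb16* and *Tbx21*. This gate does not separate NKT cells from other T cells with such genes. Thresholds were set after seeing the cells, and the members and lists were chosen with earlier results of these data known. No member was a marker, and *Fcrla* was a B cell marker. Doublets scored by Scrublet (scanpy 1.11.5) above 0.25 were kept except in an alternative: 135 WT and 103 *Postn*-DTR cells. Levels are means over cells of UMIs per 10000. Ratios of summed UMIs carry exact conditional binomial 95% intervals, levels exact Poisson intervals and shares Clopper-Pearson intervals, for counting error only. No ratio is given against a library at 0. The median log2 ratio over all genes passed 0.1 in size in cDC1 (-0.25), cDC2 (-0.23), granule-rich neutrophils (0.15), macrophages (-0.11) and gamma-delta T cells (-0.11). Named were the 7 members in every class, the 3 genes most like each, other family genes with 200 or more UMIs and the 2 highest interferon-stimulated genes, of which 1 is not reported here; *Postn* was named as the targeted gene. Thinning drew 1000 UMIs per cell and left out 112 WT and 122 *Postn*-DTR cells. Ratios of summed UMIs and their intervals were tried on simulated Poisson counts. These had no spread between cells and held no ratios of mean levels, so they cannot show how those behave. Coding sequences were the longest with a consensus identifier and 3 coding exons (GENCODE M21), aligned globally. Python 3.11.15, numpy 2.4.6 and scipy 1.17.1 were used.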

Additional observations from a re-analysis of the deposited data

Results flagged for a closer look

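*Ly6a*, *Ly6e* and *Ly6c2* were each past 1.5-fold in opposite directions in different classes, among pairs with at least 200 UMIs. *Ly6a* had a log2 ratio of *Postn*-DTR to WT of -0.63 in plasma cells and 2.10 in naive CD4 T cells. *Ly6e* had -1.20 in plasma cells and 0.64 in NK cells. *Ly6c2* had -0.82 in granule-poor neutrophils, where it was -0.0975 with nearest-neighbour classes, and 0.63 in gamma-delta T cells, where it was -3.56 without the 1 cell per library with the most *Ly6c2* UMIs. With 1 library per group none of these differences between classes was tested.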

How the results depend on the processing

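No paired analysis was possible because each group is 1 library, and for the same reason no replicate could be left out. Of the 34 pairs past 1.5-fold, 12 stayed past it in the same direction under every alternative that gave a value, at most 10 per pair: *Ly6d* in B2, plasma and pDC, *Ly6a* in naive, remaining CD4, CD8 and gamma-delta T cells and cDC2, *Ly6e* in plasma cells, *Ly6c1* in NKT cells, *Ly6c2* in migratory dendritic cells and *Ly6k* in B2 cells. Some of these rest on fewer than 200 UMIs over both libraries: *Ly6a* in cDC2 (86), *Ly6c1* in NKT cells (59), *Ly6c2* in migratory dendritic cells (57) and *Ly6k* in B2 cells (113). For *Ly6c2* in migratory dendritic cells, *Postn*-DTR gave 1 UMI and 7 alternatives gave a value. Direction was kept in 23 of the 34 pairs. The pairs counted lower went from 17 to 5 under the stricter gate, which left 30 pairs, and to 10 with at least 200 UMIs per pair (47 pairs). With nearest-neighbour classes 21 pairs were lower and 10 higher, in place of 17 and 17. The pairs counted higher went to 10 under the stricter gate, 9 after thinning and 8 with at least 200 UMIs. The stricter gate, thinning and the UMI minimum compare fewer pairs; the cause of the change with nearest-neighbour classes was not tested.

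Among these 34 pairs, log2 ratios that changed sign were, with nearest-neighbour classes, *Ly6a* in regulatory T cells (-0.028) and granule-rich neutrophils (-0.97), *Ly6c2* in regulatory (1.87) and gamma-delta T cells (-1.50) and *Ly6d* in NK cells (-0.39). Under the stricter gate they were *Ly6a* in plasma cells (0.32), *Ly6d* in the remaining CD4 T cells (0.68) and *Ly6c2* in regulatory T cells (0.71). Without the top cell they were *Ly6c2* in gamma-delta T cells (-3.56), *Ly6a* in NK cells (-0.20) and *Ly6a* in cDC1 (-2.82). After thinning they were *Ly6a* in NKT cells (-0.20) and *Ly6d* in granule-rich neutrophils (0.10). *Ly6a* in granule-rich neutrophils was -0.15 with summed UMIs and -0.29 after median centring. The causes were not tested. Of the 32 pairs within 1.5-fold, 13 had the other sign under an alternative or more, such as *Ly6a* in B2 cells (-0.14 with nearest-neighbour classes), *Ly6c2* in B2 cells (-1.42 under the stricter gate) and *Ly6a* in pDC (0.059 after thinning).

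The *Ly6c2* share of *Ly6c1* and *Ly6c2* UMIs left its interval with nearest-neighbour classes in B1 (93.2%), naive CD4 (2.02%), remaining CD4 (88.1%), regulatory (20%) and gamma-delta T cells (90.7%) and granule-poor neutrophils (98.3%) of WT, and in remaining CD4 T (66.3%), CD8 T (100%) and NK cells (100%) of *Postn*-DTR. Without the top cell it did so in WT naive CD4 T cells (4.64%) and regulatory T cells (48.0%).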

Other observations

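Cell groups outside the 18 classes also carried members. Group 2 innate lymphoid cells had *Ly6e* at 23.7 in 160 WT cells and 19.1 in 153 *Postn*-DTR cells, and *Ly6a* at 4.52 and 6.18. Mast cells and basophils had *Ly6a* at 4.39 in 29 WT cells and 36.7 in 13 *Postn*-DTR cells, on 33 and 80 UMIs. Fibroblasts and mesothelial cells had *Ly6a* at 4.61 in 31 WT cells and 11.5 in 9 *Postn*-DTR cells. *Plaur* in group 2 innate lymphoid cells was 0.81 in WT and 5.46 in *Postn*-DTR, on 55 and 263 UMIs.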
